A study of Mus musculus with 8 samples.

Results

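The genes compared here encode mucins of the ocular surface glycocalyx, the galectin that crosslinks them and the enzyme that builds their core glycan. They were taken by symbol from the deposited RNAseq comparison of mouse limbus and cornea, and the symbols were Muc1, Muc4, Muc5ac, Muc15, Muc16, Muc20, Lgals3 and C1galt1. Of these 8 symbols, 7 had a row among the 23420 rows with a gene symbol, and Muc16 is not analysed here. The corneal button is the cornea inside the limbus, and the limbal rim surrounds it where cornea meets sclera and conjunctiva. Both came from wild-type C57BL/6J mice that were 8 weeks old, with no treatment named. Tissue of 16 eyeballs was pooled by region after dissection, so each value is that of a pool of animals and not of 1 mouse. The labels list 4 samples per tissue, 8 in all, but the table holds 1 library per tissue, so there is no spread between replicates and no p-value is given.

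Membrane mucins are long glycoproteins that stand on the tips of the outermost epithelial cells of the cornea and conjunctiva. Their extracellular part is rich in serine and threonine, which carry O-linked glycans, and these glycans hold water at the surface. Secreted gel-forming mucins, made in the conjunctiva by goblet cells, form the mucus of the tear film. Galectin-3 binds galactose on mucin glycans and crosslinks the mucins into a barrier, and core 1 synthase adds that galactose to the first sugar of the chain.

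The reads of each library were derived from the deposited means, with 26104426 corneal and 21181923 limbal reads on named genes. In this text, normalised reads are reads divided by the size factor of the library (1.03 for the cornea and 0.967 for the limbus), and a log2 ratio is limbus over cornea in normalised reads. A level is an RPKM value, that is reads per kilobase of exon scaled to the library's reads on named genes, which allows different genes to be set side by side. Levels thus use total reads and not size factors, so their limbus over cornea ratios are higher by 0.21 in log2 than those of normalised reads. Intervals are at the 95% level and cover counting error only. PCR copies of a fragment were not told apart, and differences between animals or dissections are outside them. When the libraries were scaled to total reads instead, every log2 ratio moved up by 0.21, and the percentage of genes with a ratio above 0 went from 46.6% to 58.9%.

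The libraries differed in markers of the epithelia that these regions hold. Of 13 corneal epithelium markers, 7 were at least 2-fold higher in the cornea, with 1137735 corneal and 233324 limbal reads of Krt12, the corneal keratin. Of 12 conjunctival epithelium markers, 11 were at least 2-fold higher in the limbus, where their summed normalised reads were 5.99 times those in the cornea. The list does not mark conjunctiva alone. It holds Krt19 (1417 corneal and 30740 limbal reads), a keratin whose higher limbal expression the paper used to check the dissection. The conjunctiva was separated from the rims in the dissection, and how much of it they still held was not measured. In pooled tissue, fewer cells of a type and less RNA per cell cannot be told apart.

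The sequences behind the name mucin are shown first, because O-linked glycans sit on serine and threonine. For Muc4, Muc15 and Muc20, the 60 bases of coding sequence with the most serine and threonine codons in 20 are given 5′ to 3′, with those codons in capitals. They were read from the longest annotated coding transcript (GENCODE M21, GRCm38), and the window of Lgals3 is shown for contrast.
Muc4, codons 39 to 58: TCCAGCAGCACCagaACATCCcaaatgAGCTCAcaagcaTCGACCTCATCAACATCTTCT
Muc15, codons 76 to 95: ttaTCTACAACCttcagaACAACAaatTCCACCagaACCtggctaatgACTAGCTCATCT
Muc20, codons 528 to 547: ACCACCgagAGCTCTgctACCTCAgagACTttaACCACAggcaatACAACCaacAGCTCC
Lgals3, codons 239 to 258: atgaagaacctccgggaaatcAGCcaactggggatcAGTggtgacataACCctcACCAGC
The windows held 15, 12, 13 and 5 serine or threonine codons in the order Muc4, Muc15, Muc20 and Lgals3.

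Over the whole coding sequence, serine and threonine made up 34.9% of the 631 codons of Muc1, 38.1% of the 3470 of Muc4 and 35.2% of the 688 of Muc20. The share was 23.6% of 331 codons in Muc15 and 23.5% of 3455 in Muc5ac. The median over 21562 mouse genes was 13.2%, and from 99.2% (Muc5ac and Muc15) to 99.98% (Muc4) of those genes had a lower share than the mucin. Lgals3, with 7.58%, and C1galt1, with 9.64%, lay below the median, while 15.2% of the Lgals3 codons were for proline. Muc1 matched itself best when shifted by 60 bases and Muc4 when shifted by 372 bases, with 40.8% and 43.5% identical bases against a median of 28.5% and 29.5% over other shifts. Mucins are known for such tandem repeats, in which a read may fit more than 1 place. Stretches of 75 bases, the length of 1 read, occurred more than once in the transcript for 4.08% of positions in Muc4 and 21.6% in Muc5ac, and for none in the other 5 genes.

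Of the 7 genes with a row, 6 had over 3 reads in both libraries, Muc5ac being the exception. At least 2-fold higher in the limbus was 1 of the 6 (Muc1), against 15.5% of the 13862 genes measured in both libraries. At least 2-fold higher in the cornea were 2 of the 6 (Muc15 and C1galt1), against 8.99% of all genes. Beyond counting error, 4 of the 6 were higher in the limbus (Muc1, Muc4, Muc20 and Lgals3), against 33.2% of genes, and 2 of the 6 were higher in the cornea, against 40.6%. The median log2 ratio of the 6 was 0.36, and that of all genes was −0.05. The median of so few genes hides their spread, from −2.55 for Muc15 to 3.88 for Muc1.

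**Figure D1:**
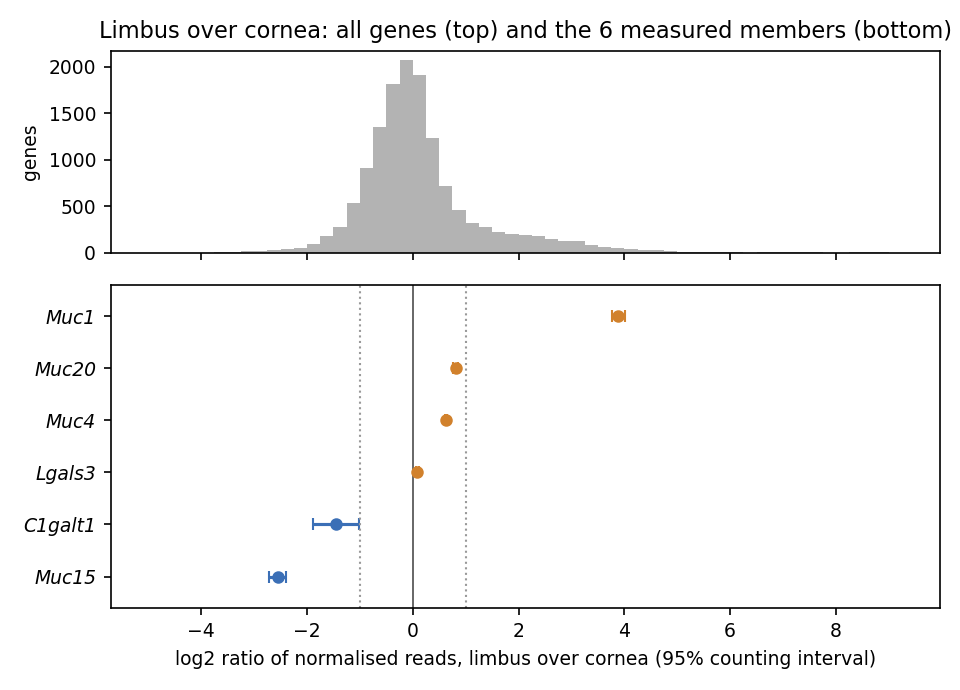
Top, number of genes by log2 ratio of normalised reads, limbus over cornea, for the 13862 genes with over 3 reads in both libraries; bottom, the same ratio for each of the 6 measured genes with its 95% counting interval, dotted lines marking 2-fold. Muc1 lies far to the right at 3.88 and Muc15 far to the left at −2.55, while Lgals3 is next to 0 at 0.09.

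Muc1 encodes a membrane mucin with a short cytoplasmic tail that takes part in signalling. It lies on the plus strand of chromosome 3 (GRCm38, chr3:89229057-89233381), with no other annotated gene over it. The cornea library held 599 reads of Muc1 and the limbus library 8255, which is 579 and 8534 normalised reads. Muc1 was thus 14.7-fold higher in the limbus (log2 ratio 3.88, interval 3.76 to 4.002), and 98.6% of all measured genes had a lower ratio. Its level was 9.78 in the cornea and 166 in the limbus. Among 97 genes of the pathway and marker lists with at least 100 reads, those nearest to Muc1 in ratio were Agr2 (3.84), a disulphide isomerase of mucus-secreting cells, and Lcn2 (4.25), a secreted siderophore-binding protein listed among conjunctival markers. Lcn2 had 15 corneal reads and an interval of 3.51 to 5.11, and Ptgds of the corneal stroma list (3.49) was almost as near. Nearness rests on 2 libraries, that is on 1 ratio per gene.

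Muc4 encodes the largest membrane mucin measured here, a partner of the receptor ERBB2. It lies on the plus strand of chromosome 16 (chr16:32735886-32782391). It had 57610 corneal and 83024 limbal reads, or 55729 and 85826 normalised reads. The 1.54-fold difference (log2 ratio 0.62, interval 0.61 to 0.64) was narrowly bounded because of the depth, and 79.0% of genes had a lower ratio. Of the 5 mucins with a row among the 8 symbols, Muc4 had the highest level in both tissues, 188 in the cornea and 333 in the limbus. Nearest to it in ratio were Krt1 (0.63), a keratin of cornified epithelium, and Dcn (0.64), the stromal proteoglycan decorin.

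Muc20 encodes another membrane mucin and lies on the minus strand of chromosome 16 (chr16:32777419-32797435). It had 5558 corneal and 9140 limbal reads, 5377 and 9448 after normalisation, and was 1.76-fold higher in the limbus (log2 ratio 0.81, interval 0.77 to 0.86). Scaled to total reads, the log2 ratio was 1.02, past 2-fold. Its level was 52.9 in the cornea and 107 in the limbus. The genes nearest in ratio were Cd68 (0.78), a lysosomal protein of macrophages, and Lgals9 (0.87), another galectin.

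Muc4 and Muc20 point towards each other and overlap at their 3′ ends over 4973 bases (chr16:32777419-32782391). They share 627 exon bases, 5.33% of the Muc4 exons and 15.6% of the Muc20 exons. The libraries were made with a stranded kit, but whether counting used the strand is not given in the sources used here. If it did not, and Muc4 reads were even along the gene, 3072 corneal and 4428 limbal Muc4 reads would lie on the shared bases, equal to 55.3% and 48.4% of the Muc20 reads. Without that number of reads, the Muc20 log2 ratio would be 1.02 and its level 23.6 in the cornea and 55.2 in the limbus. The Muc20 values therefore carry this limit, and the reverse share in Muc4 would be at most 1.71% of its reads.

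The regions before the start sites of Muc1, Muc4 and Muc20, the 3 mucins that were higher in the limbus, are shown for reference. Each line is the 250 bases upstream of the RefSeq start (GRCm38.p6) in the direction of the gene, where no annotated exon lies. Capitals mark matches on either strand to the motifs searched. The letters TATAAA are the core promoter element bound by the general transcription machinery. The letters GGGCGG are the element to which zinc finger factors of the Sp family bind. The letters CCACCC are the element to which factors of the Kruppel-like family bind. The letters CACGTG are the element to which basic helix-loop-helix factors bind. No motif overlapped another in these windows.
Muc1, chr3:89228806-89229055, plus strand: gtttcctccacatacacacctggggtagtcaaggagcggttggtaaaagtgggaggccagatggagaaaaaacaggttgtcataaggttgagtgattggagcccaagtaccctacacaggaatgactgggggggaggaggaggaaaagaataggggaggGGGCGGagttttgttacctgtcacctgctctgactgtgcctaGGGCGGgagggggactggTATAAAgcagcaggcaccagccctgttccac
Muc4, chr16:32735636-32735885, plus strand: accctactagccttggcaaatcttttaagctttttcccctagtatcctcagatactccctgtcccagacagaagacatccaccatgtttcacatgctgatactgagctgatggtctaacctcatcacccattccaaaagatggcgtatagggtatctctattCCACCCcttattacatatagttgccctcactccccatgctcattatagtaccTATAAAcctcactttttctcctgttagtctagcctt
Muc20, chr16:32797436-32797685, minus strand: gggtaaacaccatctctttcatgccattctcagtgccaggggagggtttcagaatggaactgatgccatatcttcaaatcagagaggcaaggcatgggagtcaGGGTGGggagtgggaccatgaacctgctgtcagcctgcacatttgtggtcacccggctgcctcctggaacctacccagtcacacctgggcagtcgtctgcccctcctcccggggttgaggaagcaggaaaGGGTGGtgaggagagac
TATAAA began 31 bases before the start of Muc1 and 36 before that of Muc4, and 12.4% of 32851 promoters of this length held it. Muc1 also held GGGCGG at 91 and 49 bases before the start, a motif found in 32.7% of promoters. CCACCC, found in 28.1%, began 88 bases before the Muc4 start and lay on the other strand, where it reads GGGTGG, at 147 and 17 bases before the Muc20 start. CACGTG, found in 6.02% of promoters, was in none of the 3. Of the 7 genes, 5 had an entry, and the windows of Lgals3 and C1galt1 reached into annotated exons. The GC content was 54.8% for Muc1, 43.6% for Muc4 and 57.2% for Muc20, against a median of 52.4% over all promoters.

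Muc15 encodes a small membrane mucin and was the mucin with the opposite pattern. It lies on the plus strand of chromosome 2 (chr2:110721340-110739527). The corneal library held 2357 reads and the limbal library 376, or 2280 and 389 normalised reads. Muc15 was 5.87-fold higher in the cornea (log2 ratio −2.55, interval −2.71 to −2.39), and 0.498% of all measured genes had a lower ratio. Its level was 25.3 in the cornea and 4.97 in the limbus. The whole gene lies inside Ano3 on the other strand, but Ano3, which encodes an anoctamin membrane protein, had 18 and 3 reads and shared 61 exon bases with it. The nearest genes in ratio were Slurp1 (−2.55), a secreted protein of corneal epithelium, and Krt12 (−2.19), both from the corneal epithelium list. Krt12 lay outside the Muc15 interval. Aldh1a1 (−2.16) and Kera (−2.99) of the corneal stroma list were nearly as close, so nearness does not single out the epithelium.

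Muc5ac encodes the gel-forming mucin of conjunctival goblet cells (chr7:141788972-141819231, plus strand). Each library held 1 read, so no fold is given. Its corneal level was 0.00356 and its limbal level 0.00439, and counting error allowed up to 0.0199 and 0.0245. A difference in this mucin was not detectable at this depth.

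Lgals3 encodes galectin-3, which binds mucin galactose, and lies on the plus strand of chromosome 14 (chr14:47367751-47386160). Reads were nearly equal, 23817 corneal and 23680 limbal, or 23039 and 24479 after normalisation. The ratio was 1.06-fold (log2 ratio 0.09, interval 0.06 to 0.11), and 58.3% of genes had a lower one. Under scaling to total reads it became 0.29. Lgals3 had the highest level of the 7 genes in both tissues, 491 in the cornea and 602 in the limbus. Its nearest genes in ratio were Col5a1 (0.09), a fibrillar collagen chain, and Galnt18 (0.09), a transferase family member of O-glycan initiation.

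C1galt1 encodes core 1 synthase and lies on the plus strand of chromosome 6 (chr6:7844842-7875687). It had 181 corneal and 62 limbal reads, 175 and 64.1 after normalisation. C1galt1 was 2.73-fold higher in the cornea (log2 ratio −1.45, interval −1.89 to −1.03), the widest interval of the 6 because of the low reads. A lower ratio was found for 3.46% of genes. Its level was 1.14 in the cornea and 0.480 in the limbus. The nearest genes in ratio were Tkt (−1.62), the transketolase abundant in corneal epithelium, and Klf4 (−1.27), an epithelial transcription factor. C1galt1c1, the chaperone that core 1 synthase needs to fold, had 588 corneal and 419 limbal reads (log2 ratio −0.39, interval −0.58 to −0.21).

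In the cornea, the order of levels was Lgals3, Muc4, Muc20, Muc15, Muc1, C1galt1 and Muc5ac. In the limbus, it was Lgals3, Muc4, Muc1, Muc20, Muc15, C1galt1 and Muc5ac, so Muc1 stood above both Muc20 and Muc15. The counting intervals of neighbours in these orders did not overlap in either tissue. The highest level was 431 times that of C1galt1 in the cornea and 1252 times in the limbus. Neither order changed when the longest transcript replaced the union of exons as the length. With the Muc4 reads over shared exons left out as above, the corneal level of Muc20 (23.6) would fall below that of Muc15 (25.3).

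**Figure D2:**
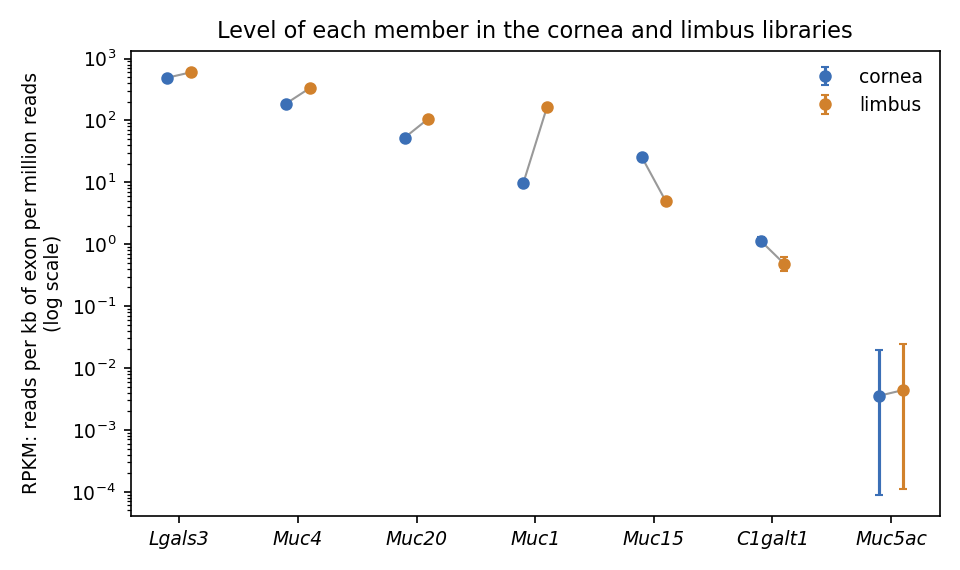
Level of each of the 7 genes, as RPKM on a log axis, in the cornea and limbus libraries, with 95% counting intervals and a line joining the tissues. Levels are scaled to total reads, so the lines do not show the folds of normalised reads. Muc1 is at 9.78 in the cornea and 166 in the limbus, Muc15 at 25.3 and 4.97, and Muc5ac near 0 in both with 1 read per library.

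The shares of Muc1, Muc4, Muc15 and Muc20 in their sum were compared within each library, where scaling plays no part. Together these 4 genes had 66124 corneal and 100795 limbal reads. Muc4 took 87.1% of the corneal and 82.4% of the limbal reads. Muc1 took 0.906% and 8.19%, Muc15 took 3.56% and 0.373%, and Muc20 had 8.41% and 9.07%. Per length of exon, Muc4 took 68.1% of the summed level in the cornea and 54.5% in the limbus, Muc1 3.55% and 27.2%, Muc15 9.18% and 0.813%, and Muc20 19.2% and 17.5%. The Muc20 shares would be lower in both tissues without the Muc4 reads over shared exons, as above. Gm9573, a further mucin gene, is outside these shares, with a level of 111 in the cornea and 180 in the limbus. With it added, after its values were seen, Muc4 took 48.6% of the corneal and 42.1% of the limbal sum, Gm9573 28.7% and 22.7%, and Muc1 2.53% and 20.99%.

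**Figure D3:**
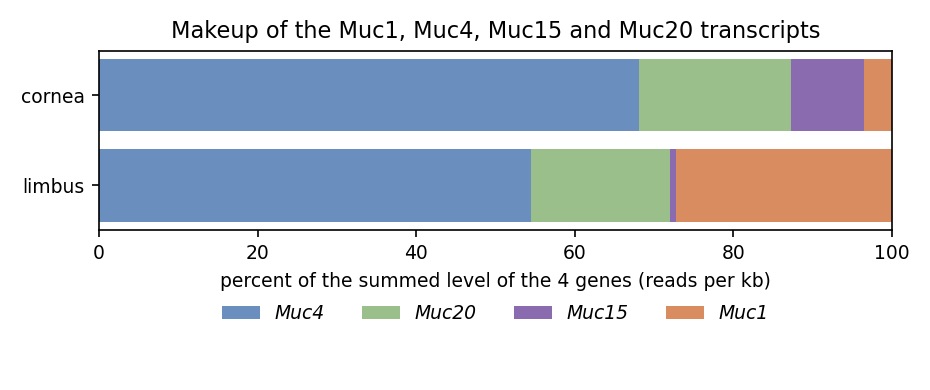
Share of each gene, in percent, in the summed level (reads per kilobase of exon) of Muc1, Muc4, Muc15 and Muc20, with 1 bar per tissue. The Muc1 segment is 3.55% of the corneal bar and 27.2% of the limbal bar, and the Muc15 segment is 9.18% and 0.813%.

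Ratios between pairs of genes are also free of scaling. The Muc1 level was 0.387 times that of Muc15 in the cornea and 33.4 times in the limbus, an 86.4-fold difference of the ratio (log2 difference 6.43, interval 6.24 to 6.63). The Muc1 level was 0.0521 times that of Muc4 in the cornea and 0.498 times in the limbus. The pair that differed least was Muc4 and Muc20, with a ratio of 3.55 in the cornea and 3.11 in the limbus (log2 difference −0.19, interval −0.24 to −0.14). Muc4 reads counted for Muc20 over their shared exons would bring this pair closer. Without them, at even coverage, the Muc20 log2 ratio would be 1.02, against 0.62 for Muc4. Relative to galectin-3, Muc4 was at 0.382 times its level in the cornea and 0.554 times in the limbus. Of 15 pairs compared, all 15 had a counting interval that did not include 0. These pairs come from 6 genes, and the share over pairs of all genes was not computed. Single genes beyond counting error made up 33.2% (limbus) and 40.6% (cornea) of those measured, so the count is not particular to these genes.

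The other mucins were described from a list of 19 symbols, of which 13 had a row and 6 had over 3 reads in both libraries. Of the 6, the limbus held at least 2-fold more of 2 and the cornea of 1, and the median log2 ratio was 0.31, or 0.49 with Emcn at its bound. Over all genes, the corresponding shares are 15.5% for the limbus and 8.99% for the cornea with a median of −0.05, and the counts of the lists that follow stand beside these. Gm9573, for which RefSeq gives Muc21 as another name, had the most, 15118 corneal and 19928 limbal reads (log2 ratio 0.49). Podxl, a sialomucin of vessels and podocytes, had 7 and 524 reads (6.32). The other of the 2 limbal genes, Mcam (14 and 322 reads, 4.62), encodes a cell adhesion molecule rather than a mucin. Emcn, the endothelial endomucin, had 2 and 365 and was at least 44.1-fold higher in the limbus. Cd164, a sialomucin of lysosomes and cell surfaces, had 16622 and 4065 reads (−1.94). The gel-forming mucins Muc5b and Muc6 were listed at 0 in both libraries, as were Prol1 and Mucl1, and Muc2 had 3 reads in each.

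Of 10 other galectin symbols, all 10 had a row and 8 had over 3 reads in both libraries. The limbus held at least 2-fold more of 4 of the 8 and the cornea of none, with a median log2 ratio of 0.98. Among the 4 is Lgals3bp (172 corneal and 496 limbal reads, 1.62), which encodes a protein that binds galectin-3 and is not itself a galectin. Lgals7, a galectin of stratified epithelium, had 904 corneal and 3508 limbal reads (2.05), the most reads and the highest ratio. Lgals1, a galectin of stromal and many other cells, had 1249 and 3142 reads (1.43), and Lgals8 had 1618 and 1066 (−0.51), the lowest.

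The Galnt enzymes add the first sugar of an O-glycan. Of 20 symbols 19 had a row and 11 had over 3 reads in both libraries, of which 3 were at least 2-fold higher in limbus and 4 in cornea. Their median log2 ratio was −0.33, and 0.09 when the 4 genes with a bound only were added at that bound. Galnt18 had the most, 7426 corneal and 7379 limbal reads (0.09). Galnt4 had 6857 and 2756 reads (−1.22), the lowest ratio, and Galnt14 had 5 and 17 (1.86, interval 0.36 to 3.65), the highest. The genes with a bound were at least 11.6-fold (Galnt15), 7.46-fold (Galnt16), 5.51-fold (Wbscr17) and 3.08-fold (Galnt6) higher in the limbus, each with 3 reads or fewer in the cornea. Scaled to total reads, 2 rather than 4 were at least 2-fold higher in the cornea.

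The enzymes that extend or cap the core were listed with 20 symbols, all 20 with a row and 15 with over 3 reads in both libraries. The limbus held at least 2-fold more of 5 of the 15 and the cornea of none, with a median log2 ratio of 0.46. The median was 0.53 when genes over 3 reads in only 1 library were added, with 3 in place of the smaller number. St6galnac1, the sialyltransferase that makes sialyl-Tn, had the most, 11710 corneal and 8659 limbal reads (−0.34). St3gal4, which caps galactose with sialic acid, had 28 and 991 reads (5.24), the highest ratio. St8sia6, which lengthens sialic acid chains, had 1758 and 1223 (−0.43), the lowest.

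For anchoring and shedding, 10 symbols were listed and 8 had over 3 reads in both libraries, of which 1 was at least 2-fold higher in limbus and 1 in cornea. Their median log2 ratio was −0.63. The median was −0.26 when genes over 3 reads in only 1 library were added, with 3 in place of the smaller number. Ezr, whose product ezrin ties membrane mucins to actin, had 19101 corneal and 10298 limbal reads (−0.80). Msn, encoding the related moesin, had 144 and 915 (2.76). The sheddases Adam10 and Adam17 were at −0.72 and −0.57, and Mmp9, with 3 and 30 reads, was at least 3.32-fold higher in the limbus. The lowest ratio was that of Dsg1a (22856 and 4839 reads, −2.14), a desmosomal cadherin, which is also on the corneal epithelium list.

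**Figure D4:**
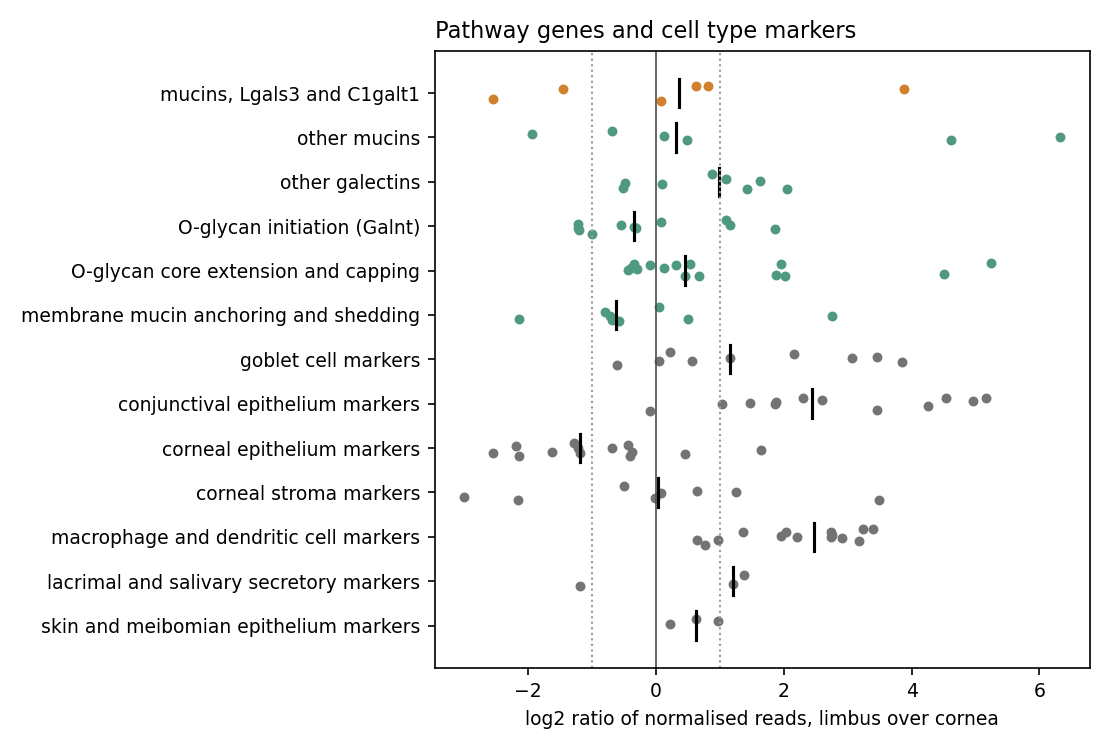
Log2 ratio of normalised reads, limbus over cornea, of each gene with over 3 reads in both libraries, by list, with a black bar at the median and dotted lines at 2-fold. The conjunctival and the macrophage markers lie mostly to the right, with medians of 2.45 and 2.48, and the corneal epithelium markers mostly to the left, with a median of −1.19.

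Cell type markers, which went in both directions as the mucins did, are given here, and their part in the mucin ratios was not tested. The summed normalised reads of the 12 conjunctival epithelium markers were 43251 for cornea and 259248 for limbus, with a median log2 ratio of 2.45. The keratin Krt13 had 35544 and 120736 reads (1.86), Krt4 had 2138 and 71498 (5.16), and S100a9 had 850 and 745 (−0.09), the lowest ratio of the list. No marker of this list was at 0 in either library.

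The goblet cell list summed to 6083 corneal and 21883 limbal normalised reads, a ratio of 3.60. Of its 17 genes, 9 had over 3 reads in both libraries, with 5 at least 2-fold higher in limbus and none in cornea, and a median log2 ratio of 1.15. Krt7, a keratin shared with the conjunctival list, had 1489 and 15389 reads, the most of the list. It made up 1440 of the corneal and 15908 of the limbal normalised reads, so the ratio of 3.60 rests mostly on Krt7. Agr2 had 46 and 618 reads, Creb3l1, a transcription factor of secretory cells, had 52 and 410 (3.07), and Clca1, a secreted goblet cell protein, had 6 and 25 (2.15). Bpifb1, a secreted mucosal protein, had 0 and 36 and was at least 4.05-fold higher in the limbus. The goblet cell products Tff1, Tff3 and Zg16 and the factor Atoh1 were listed at 0 in both libraries, Spdef, the factor that specifies goblet cells, had 18 and 25 reads, and Fcgbp had 1483 and 912 (−0.61).

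The corneal epithelium list summed to 0.410 times as many normalised reads in the limbus as in the cornea, with 11 of 13 markers lower in the limbus beyond counting error. Its lowest ratio was that of Slurp1 (52346 and 8383 reads, −2.55) and its highest that of Ly6d (43 and 126, 1.65). Markers of macrophages, which are known to express galectin-3, and of dendritic cells summed to 2.14 times as many in the limbus, and 14 of 14 were higher there beyond counting error. In this list Itgam had 6003 and 8793 reads (0.65), the lowest ratio, and made up most of the summed reads in both libraries. H2-Ab1, of antigen-presenting cells, had 141 and 1390 (3.40), and no marker with a row was at 0. Of 8 corneal stroma markers, 2 were at least 2-fold higher in limbus, the highest being Ptgds (3.49), and 2 in cornea, the lowest being Kera (−2.99). Of 8 lacrimal and salivary markers with a row, 3 had over 3 reads in both libraries, from Aqp5 (−1.19), also a corneal gene, to Ltf (1.38), and Lpo, with 0 and 28 reads, was at least 3.08-fold higher in the limbus. Of 7 skin and meibomian markers with a row, 3 had over 3 reads in both, from Krt10 (0.23) to Awat2 (0.97), and none was 2-fold apart. Scaled to total reads, Awat2 passed 2-fold and Aqp5 no longer did.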

How the data were processed

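RNA of limbal rims and corneal buttons, pooled by tissue, was sequenced from stranded total RNA libraries (100 ng input) as paired-end reads of 75 bases. Per the paper's methods, adaptors were trimmed, CLC Genomics Workbench mapped the reads to GRCm38 (mm10), and a trimmed mean of M-values served for normalisation. The gene counting tool and its strand setting are not given in the sources used here. The authors deposited 1 table of 40904 rows, of which 17484 had no gene symbol and stayed out of all totals. In the mean column the authors deposited a signal, the average over both libraries of reads divided by a size factor. The other columns that the authors deposited are their own comparison: a shrunken log2 ratio, its error, and p-values before and after adjustment. The p-values were not used.

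Each mean moves in steps of 1 read per library, and 109 corneal reads weigh the same as 102 limbal ones. For all 17442 genes with a mean above 0, the mean lay within 0.02 of a step of a whole number. Only 1 pair of read numbers could make the mean of 6143 genes, and more than 1 could for 11299. The pair was taken that best returned the deposited log2 ratio and standard error under a shrinkage model. This alone placed 17116 genes, among them the 6 measured here, while 85 needed the gene's dispersion as well and 241 were given the pair nearest to a ratio of 1. These columns served that choice only. The derived reads are not a count table, and no count model was fitted. For 5 of the 6 measured genes the next pair missed by at least 19.0 times as much, and for C1galt1 the other pair could not return the ratio. On simulated data for limbus against cornea, 17039 of 17039 read pairs were found. Whether the deposited columns follow the shrinkage model was not tested in this way.

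Ratios are of reads over size factors (1.03 and 0.967), with exact 95% intervals (Clopper-Pearson) from the limbal part of each gene's reads. Where 1 library had at most 3 reads, 3 was put in its place, and the interval's lower end is then given as a bound instead of a fold. Lengths and positions are from GENCODE M21, and promoters are from RefSeq. Coding windows are printed for 4 genes as examples, and that of 1 other gene is not reported here. The member genes and gene lists were chosen with earlier results of these data known. Named are all members and, per list, the gene with the most reads, those with the highest and lowest ratio, those with at least 20 reads in 1 library and 3 or fewer in the other, and the 2 list genes nearest to each member in ratio among those with at least 100 reads. C1galt1c1, Lgals1, Lgals3bp, Mcam, Krt19, Aldh1a1, Adam10, Adam17, Creb3l1, Clca1, Spdef, Tff1, Tff3, Zg16, Atoh1, Muc2, Muc5b, Muc6, Prol1 and Mucl1 were named after their values were seen. The symbol column was used for names, since the accession in the row matched the symbol for 2 of 18556 rows checked. Alternatives were other scalings, a pseudocount of 1, minimum means of 10 and 50, thresholds of 1.5-fold and 4-fold, the next read pair, and the longest transcript as length. Python 3.11.15, numpy 2.4.6, pandas 2.3.3 and scipy 1.17.1 were used.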

Additional observations from a re-analysis of the deposited data

How the results depend on the processing

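Neither the log2 ratios of the 6 genes nor their median changed direction under the alternatives run. Scaled to total reads, the median of all genes turned from −0.05 to 0.15, ratios less than 0.21 below 0, such as that of S100a9, turned positive, the member genes at least 2-fold higher in the limbus went from 1 to 2, Muc20 joining at a log2 ratio of 1.02, the median of the 6 genes went to 0.56, and the Galnt enzymes at least 2-fold higher in the cornea went from 4 to 2. Other lists moved by 1 gene at most. Then 2-fold higher in the limbus were 5 genes of the other galectin list, 12 macrophage markers and 1 skin marker. Those 2-fold higher in the cornea were 6 corneal epithelium and 0 lacrimal markers. A 1.5-fold threshold gave 3 genes in the limbus, and a 4-fold threshold gave 1 in the cornea. With the next read pair that gives the same mean, the log2 ratios would be 4.19 for Muc1, 4.26 for Muc4, 6.12 for Muc20, −5.17 for Muc15 and 0.54 for Lgals3. Without even-coverage Muc4 reads over the shared exons, an alternative added after seeing the data, Muc20 was at 1.02. In the other 46 comparisons of a count, median or order with an alternative, the value stayed within 1.5 times or within counting error. No paired analysis was possible because the table holds 1 library per tissue and no value for a numbered sample, and for the same reason no library could be left out. Depth limits Muc5ac, with 1 read per library, and C1galt1, with 62 in the limbus.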
